A study of Mus musculus with 12 samples.

Results

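Solute carriers are a large group of membrane transporters, and 187 of their genes were followed here in intestinal stem cells (ISCs) of young and old mice. Members were selected on their counts, as the protein-coding genes with a symbol that starts with Slc and a digit and with a count of at least 10 in at least 3 of the 12 libraries. They were 187 of 371 protein-coding genes with such a symbol, in a table of 54232 genes. These counts were taken over all libraries without regard to group, and 0 members passed through the libraries of 1 group alone. Of the other 184 genes, 74 had no count in any library. The libraries were made by 3′ RNA sequencing from 1 female mouse each and form 4 groups of 3. The SM6 isolation took ISCs from wild-type C57/Bl6 mice, and the Lgr5-GFP isolation took them from Lgr5-EGFP-IRES-CreERT mice (Lgr5-EGFP-IRES-CreERT2 in the study's methods). The latter carry a green fluorescent protein and an inducible recombinase in the Lgr5 locus. Young mice were 2 months old and old mice 22 months old in both isolations, and the labels name no treatment. Villi were scraped off the small intestine before crypts were isolated and dissociated for sorting. Strain and isolation change together, so their parts in a difference between isolations cannot be told apart. The labels give one surface-marker sort (EPCAM+, CD44high, CD166+, CD24med, EPHB2high, GRP78low, without CD31 or CD45) for all libraries, while the study elsewhere describes sorting of the reporter mice by GFP.

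Solute carriers move sugars, amino acids, ions, metals, vitamins and nucleotides across membranes along or against a gradient. Some sit in the plasma membrane, others in mitochondria, the Golgi apparatus or lysosomes. In the small intestine, the apical and basolateral carriers of enterocytes take up digested food, and they are classically low in crypts and high on villi. ISCs at the crypt base divide and depend on carriers for their own nutrition, mitochondrial exchange and glycosylation.

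Library totals ran from 970472 to 3815425 counts, and solute carriers took 0.744% to 1.04% of them. Lgr5 was measured in every library, from 217 to 356 CPM (counts relative to library totals after TMM scaling, a trimmed-mean correction for composition). Summed CPM of 10 stromal and endothelial markers ran from 0 to 8.68 and of 12 immune markers from 5.79 to 44.4. Paneth cell defensins took 1.26% to 12.4% of the counts in 10 libraries and 23.1% and 23.2% in SM6 old replicate 3 and Lgr5-GFP young replicate 1, the same libraries in which the solute carriers took the lowest shares, 0.744% and 0.778%. Markers of goblet cells stood higher in SM6 old, where their summed CPM ran from 18027 to 19236, than in SM6 young, where it ran from 6012 to 9621. In sorted bulk samples, more cells of a type and more RNA per cell cannot be told apart.

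Among the 187 members, 110 reached the count minimum in all 12 libraries. The 9 that reached it in exactly 3 libraries were Slc13a2, Slc15a1, Slc16a6, Slc23a2, Slc25a29, Slc2a5, Slc35d2, Slc39a13 and Slc41a2. Just outside the threshold, with 2 libraries each, were Slc15a2, Slc16a7, Slc25a14, Slc25a33, Slc26a11, Slc38a6, Slc5a11, Slc5a8, Slc6a7 and Slc8b1. The deepest library, Lgr5-GFP young replicate 1, held 186 members at the minimum and the shallowest, Lgr5-GFP old replicate 3, held 128. By family number, the members were classed as 32 mitochondrial carriers, 27 amino acid and peptide transporters and 24 metal ion transporters. Another 24 were classed as transporters of nucleotide sugars, sugar phosphates and acetyl-CoA. A further 23 were classed with nucleosides, vitamins, bile acids or organic ions, and 22 with inorganic ions. The other classes held 19 for hexoses, inositol or monocarboxylates, 7 for lipids or choline and 7 for vesicles and lysosomes. A class need not give the substrate or place of each of its members. The remaining 2, Slc7a6os and Slc9a3r1, are named after a transporter and are not transporters themselves. Slc4a1ap, an adaptor protein, is likewise no transporter but was counted among the inorganic ion carriers by its family number. Counts were concentrated in few genes, since the 10 members with the most CPM held 50.1% of the members' total and Slc25a5, an ADP/ATP exchanger of the mitochondrial inner membrane, held 19.02%. The value of a member in log2(CPM + 1) ranged over 1.43 (median over members) between its lowest and highest library, with a pooled standard deviation within groups of 0.388.

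Because carriers of absorption and of housekeeping are both in the family, the first question was what age did in each isolation. In SM6, 5 members rose and 3 fell in old ISCs. In Lgr5-GFP, 1 rose and 1 fell. The only member called in both was Slc28a2, which fell in both. The leave-one-out fits named below each drop 1 library. Calls refer to edgeR's quasi-likelihood test with a p under 0.05 after Benjamini-Hochberg (BH) adjustment over 13368 genes, of which all 187 members were part. The 8 calls in SM6 were 4.28% of the members, against 2.42% of all genes tested, with 2.67% against 0.643% for higher calls and 1.60% against 1.77% for lower calls. Among the 9573 protein-coding genes that pass the same count minimum, 3.23% were called in either direction. In Lgr5-GFP, the 2 calls were 1.07% of the members, against 0.471% of all genes, and the single calls higher and lower were each 0.535%, against 0.187% and 0.284%. An unadjusted p under 0.05 was reached by 41 members in SM6, 21.9% against 13.1% of all genes, and by 29 in Lgr5-GFP, 15.5% against 9.79%. All genes tested include ones with fewer counts than the members, and unadjusted shares were not taken over the 9573 genes.

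**Figure D1:**
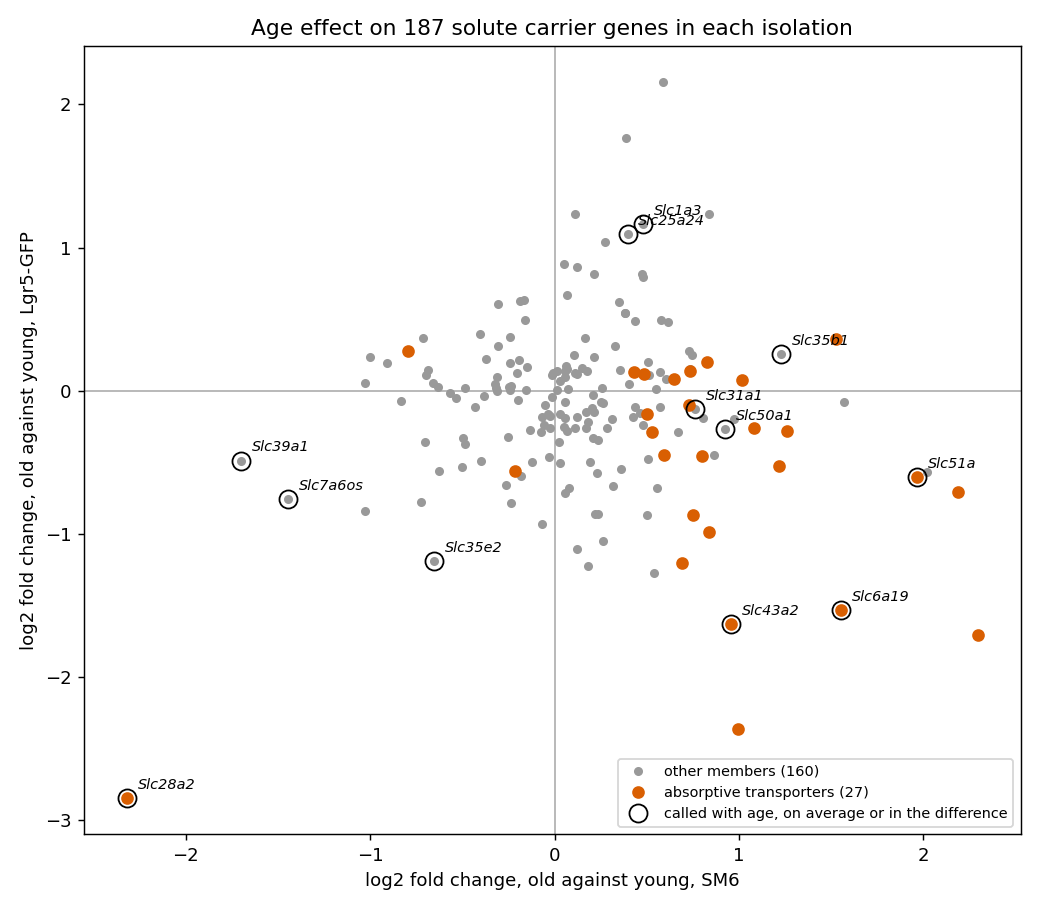
Log2 fold change with age (old against young) of each of the 187 solute carrier genes in SM6 (horizontal axis) and Lgr5-GFP (vertical axis), with 27 absorptive transporters in orange and members called with age, on average or in the difference ringed and named. The absorptive transporters lie mostly to the right of 0 and below it, 24 of 27 above 0 in SM6 and 8 of 27 above 0 in Lgr5-GFP, and Slc28a2 stands alone at the lower left.

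Slc28a2 (ENSMUSG00000027219, GRCm38 chromosome 2, 122426477 to 122461137, plus strand) encodes a sodium-coupled transporter of purine nucleosides. SM6 libraries from young mice held 5.46, 21.6 and 14.5 CPM of it and those from old mice 3.12, 4.07 and 0.799. Lgr5-GFP libraries held 21.1, 22.7 and 15.7 CPM at 2 months and 3.33, 0 and 4.82 at 22 months. Every old library lay below every young one in each isolation, although SM6 young replicate 1 stood close to the old range. The raw counts behind the old values were 4, 6 and 1 in SM6 and 5, 0 and 5 in Lgr5-GFP, so counting error is large. It fell by 2.32 on the log2 scale in SM6 (BH-adjusted p = 0.0431 by edgeR, SE 0.61) and by 2.85 in Lgr5-GFP (BH-adjusted p = 0.0325, SE 0.60). Averaged over both isolations it fell by 2.58 (BH-adjusted p = 0.00108 by edgeR, SE 0.43), the smallest adjusted p among the members in that comparison, and the age effects of the isolations differed by -0.53 (BH-adjusted p = 0.922, SE 0.94). The call in SM6 was lost in 8 of the 12 leave-one-out fits (BH-adjusted p up to 0.293 by edgeR) and that in Lgr5-GFP without young replicate 1 or 2 or old replicate 1 or 2 (up to 0.117), while the averaged call was kept in all 12, with an adjusted p of at most 0.00804. Voom with quality weights and the defensin share as a covariate ended the call in each isolation but not the averaged one. Leaving out both libraries rich in defensins, or adding a term for replicate number, ended the call in SM6. DESeq2 did not call Slc28a2 in Lgr5-GFP. The other nucleoside carrier among the landmark genes, Slc29a1, an equilibrative transporter, measured 37 ± 2.13 CPM in SM6 young and 47.3 ± 10.5 in SM6 old, and 40.04 ± 6.31 and 43.9 ± 8.04 in Lgr5-GFP (SD, n = 3), and was called in no comparison. Its exons overlap those of Gm17080 on the opposite strand.

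Promoters are shown for Slc28a2, which moved the same way with age in both isolations, and for Slc51a and Slc43a2, which differed between them. That of Slc6a19, which also differed, is not shown because its RefSeq start lies inside the gene as annotated for the counts, and of the 2 starts of Slc43a2 the upstream one was taken. Each is the 250 bases before a RefSeq start on GRCm38.p6, written 5′ to 3′ on the gene's strand. In Slc28a2 (chr2:122426185-122426434, plus strand), capitals mark AGATAA, known as a motif of GATA factors. In Slc51a (chr16:32487880-32488129, minus strand), they mark the half-site AGGTCA of nuclear receptors, which reads on the other strand there. Slc43a2 (chr11:75531444-75531693, plus strand) held none of the motifs searched.
Slc28a2: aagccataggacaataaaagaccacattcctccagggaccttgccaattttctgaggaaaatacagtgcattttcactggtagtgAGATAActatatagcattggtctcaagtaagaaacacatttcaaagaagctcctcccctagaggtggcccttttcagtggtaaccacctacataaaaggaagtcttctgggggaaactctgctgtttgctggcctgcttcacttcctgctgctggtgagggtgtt
Slc51a: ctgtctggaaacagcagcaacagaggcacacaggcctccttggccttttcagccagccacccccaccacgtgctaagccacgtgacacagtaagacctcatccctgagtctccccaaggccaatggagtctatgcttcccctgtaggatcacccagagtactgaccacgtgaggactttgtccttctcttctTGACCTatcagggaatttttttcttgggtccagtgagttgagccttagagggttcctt
Slc43a2: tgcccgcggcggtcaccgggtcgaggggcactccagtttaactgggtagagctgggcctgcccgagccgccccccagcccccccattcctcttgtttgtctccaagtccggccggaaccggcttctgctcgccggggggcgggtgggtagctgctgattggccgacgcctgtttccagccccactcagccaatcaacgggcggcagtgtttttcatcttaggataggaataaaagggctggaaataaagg
The motifs were sought on both strands in 181 RefSeq promoters of 140 members. AGATAA was in 6.08% of them and 9.99% of all 32851 promoters, AGGTCA in 15.5% and 14%, TATAAA in 5.52% and 12.4%, and the GC box GGGGCGGGG in 17.1% and 10.4%. TTTATGG, a CDX2 motif, was in 1.10% and 2.43%, TGANTCA, an AP-1 motif, in 3.87% and 6.75%, and TGACGTCA, a CREB motif, in 1.10% and 1.55%. CAAAGTCCA, an HNF4 motif, was in 0 of the members' promoters and in 0.384% of all, and the motif of HNF1 was in 0.552% and 0.371%. The median GC content was 60.4% in the members' promoters and 52.4% in all. These counts describe letters in a window of fixed length, and a match is no site.

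In SM6, Slc35b1 (ENSMUSG00000020873, chromosome 11, 95384692 to 95391776), a carrier of the endoplasmic reticulum membrane, rose. Its CPM was 34.6, 26.1 and 33.2 at 2 months and 81.1, 72.6 and 65.5 at 22 months. In Lgr5-GFP it measured 41.9, 38.8 and 39.7 in young and 50.7, 39.8 and 54 in old. The ages were far apart in SM6, and overlapped in Lgr5-GFP. The log2 fold change was 1.23 in SM6 (BH-adjusted p = 0.00135 by edgeR, SE 0.20) and 0.26 in Lgr5-GFP (BH-adjusted p = 0.758, SE 0.20). The average was called as well, at 0.74 (BH-adjusted p = 0.00379, SE 0.14), and the difference between the isolations was not (BH-adjusted p = 0.185 by edgeR). Both calls were kept in all 12 leave-one-out fits.

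Slc39a1 (ENSMUSG00000052310, chromosome 3, 90248172 to 90253612) encodes the zinc importer ZIP1. It measured 260, 305 and 316 CPM in SM6 young and 69.4, 79.4 and 123 in SM6 old, with no overlap. In Lgr5-GFP young it measured 175, 182 and 229 CPM, and in old 97.3, 253 and 67.5. Old replicate 2 of Lgr5-GFP was thus the highest of that isolation and the other two old libraries the lowest. It fell by 1.70 on the log2 scale in SM6 (BH-adjusted p = 0.00279 by edgeR, SE 0.31) and by 1.09 on average (BH-adjusted p = 0.00379, SE 0.21), and its log2 fold change in Lgr5-GFP was -0.49 (BH-adjusted p = 0.647, SE 0.30). A robust form of the quasi-likelihood test called neither result. Of the 18 zinc transporters among the members, 14 had a log2 fold change above 0 in SM6 and 6 in Lgr5-GFP, with medians of 0.11 and -0.13. Slc39a1 alone was called in SM6, against 2.42% of all genes, and 4 of the 18 (22.2% against 13.1%) had an unadjusted p under 0.05 there. Slc39a4, the apical zinc importer of enterocytes, went from 40.7 ± 5.60 to 71.2 ± 16.2 CPM in SM6 (SD, n = 3) without being called (log2 fold change 0.80, BH-adjusted p = 0.157 by edgeR).

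Slc31a1 and Slc50a1 also rose in SM6 and Slc7a6os fell. Slc31a1, the copper importer CTR1, measured 251, 244 and 252 CPM at 2 months and 323, 515 and 427 at 22 months, a log2 fold change of 0.76 (BH-adjusted p = 0.0169 by edgeR, SE 0.18). Slc50a1, the sugar transporter SWEET1, measured 31.6, 27.7 and 22.4 CPM in young and 42.9, 65.2 and 47.1 in old, a log2 fold change of 0.92 (BH-adjusted p = 0.0435 by edgeR, SE 0.24). Neither overlapped between ages in SM6, and neither was called in Lgr5-GFP, where Slc31a1 had a log2 fold change of -0.12 and Slc50a1 one of -0.27. Slc7a6os measured 17, 19.4 and 16.6 CPM in SM6 young and 7.01, 8.14 and 3.99 in SM6 old, and fell by 1.45 (BH-adjusted p = 0.024 by edgeR, SE 0.35) there. In Lgr5-GFP it measured 18.3, 21.7 and 23.6 CPM in young and 13.3, 10.6 and 13.5 in old, and over both isolations it fell by 1.10 (BH-adjusted p = 0.00809, SE 0.23). Slc7a6os lies 2011 bases from Slc7a6 on the opposite strand, and Slc7a6, an exchanger of cationic amino acids, was not called (log2 fold change -0.50 on average, BH-adjusted p = 0.38 by edgeR).

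Slc1a3 (ENSMUSG00000005360, chromosome 15, 8634124 to 8710764), the glutamate and aspartate transporter GLAST, was the member that rose in Lgr5-GFP. It measured 41.6, 46.3 and 34.8 CPM in young and 112, 96 and 61.7 in old mice of that isolation. In SM6 it measured 56.4, 36 and 55.6 in young and 74.8, 61.8 and 69.5 in old. Old libraries lay above young ones in both isolations, by a wider margin in Lgr5-GFP. The log2 fold change was 1.16 in Lgr5-GFP (BH-adjusted p = 0.0172 by edgeR, SE 0.23), 0.48 in SM6 (BH-adjusted p = 0.364, SE 0.23) and 0.82 on average (BH-adjusted p = 0.00371, SE 0.16). The averaged call was kept in all 12 leave-one-out fits. The call in Lgr5-GFP was lost without Lgr5-GFP young replicate 1, young replicate 3 or old replicate 1. Slc1a5, the glutamine transporter ASCT2, had means of 179 ± 36.2 CPM at 2 months and 209 ± 42.6 at 22 months in Lgr5-GFP (SD, n = 3) and was not called.

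Averaged over both isolations, 7 members were called, 3 higher and 4 lower in old, 3.74% of the members against 2.66% of all genes. The shares were 1.60% against 0.598% for higher calls and 2.14% against 2.06% for lower calls. An unadjusted p under 0.05 was reached by 35 members, 18.7% against 12.8%. Beside the 5 already named, these were Slc35e2 and Slc25a24. Slc35e2, a relative of nucleotide sugar transporters without an established substrate, measured 26.7, 21.6 and 25.3 CPM in SM6 young and 17.9, 12.9 and 16 in SM6 old, and 19.8, 18.9 and 22.4 against 10.7, 8.94 and 6.75 in Lgr5-GFP. It fell by 0.92 (BH-adjusted p = 0.0148 by edgeR, SE 0.21) and did not overlap in either isolation, and it shares exon sequence with Gm16023 on the opposite strand. Slc25a24, a mitochondrial carrier of ATP-Mg and phosphate, went from 22.6 ± 1.31 to 29.6 ± 9.05 CPM with age in SM6, where the ages overlapped, and from 11.7 ± 3.31 to 26.4 ± 1.92 CPM with age in Lgr5-GFP (SD, n = 3), where they did not. It rose by 0.75 on average (BH-adjusted p = 0.047 by edgeR, SE 0.20), and this call was lost in 10 of the 12 leave-one-out fits.

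**Figure D2:**
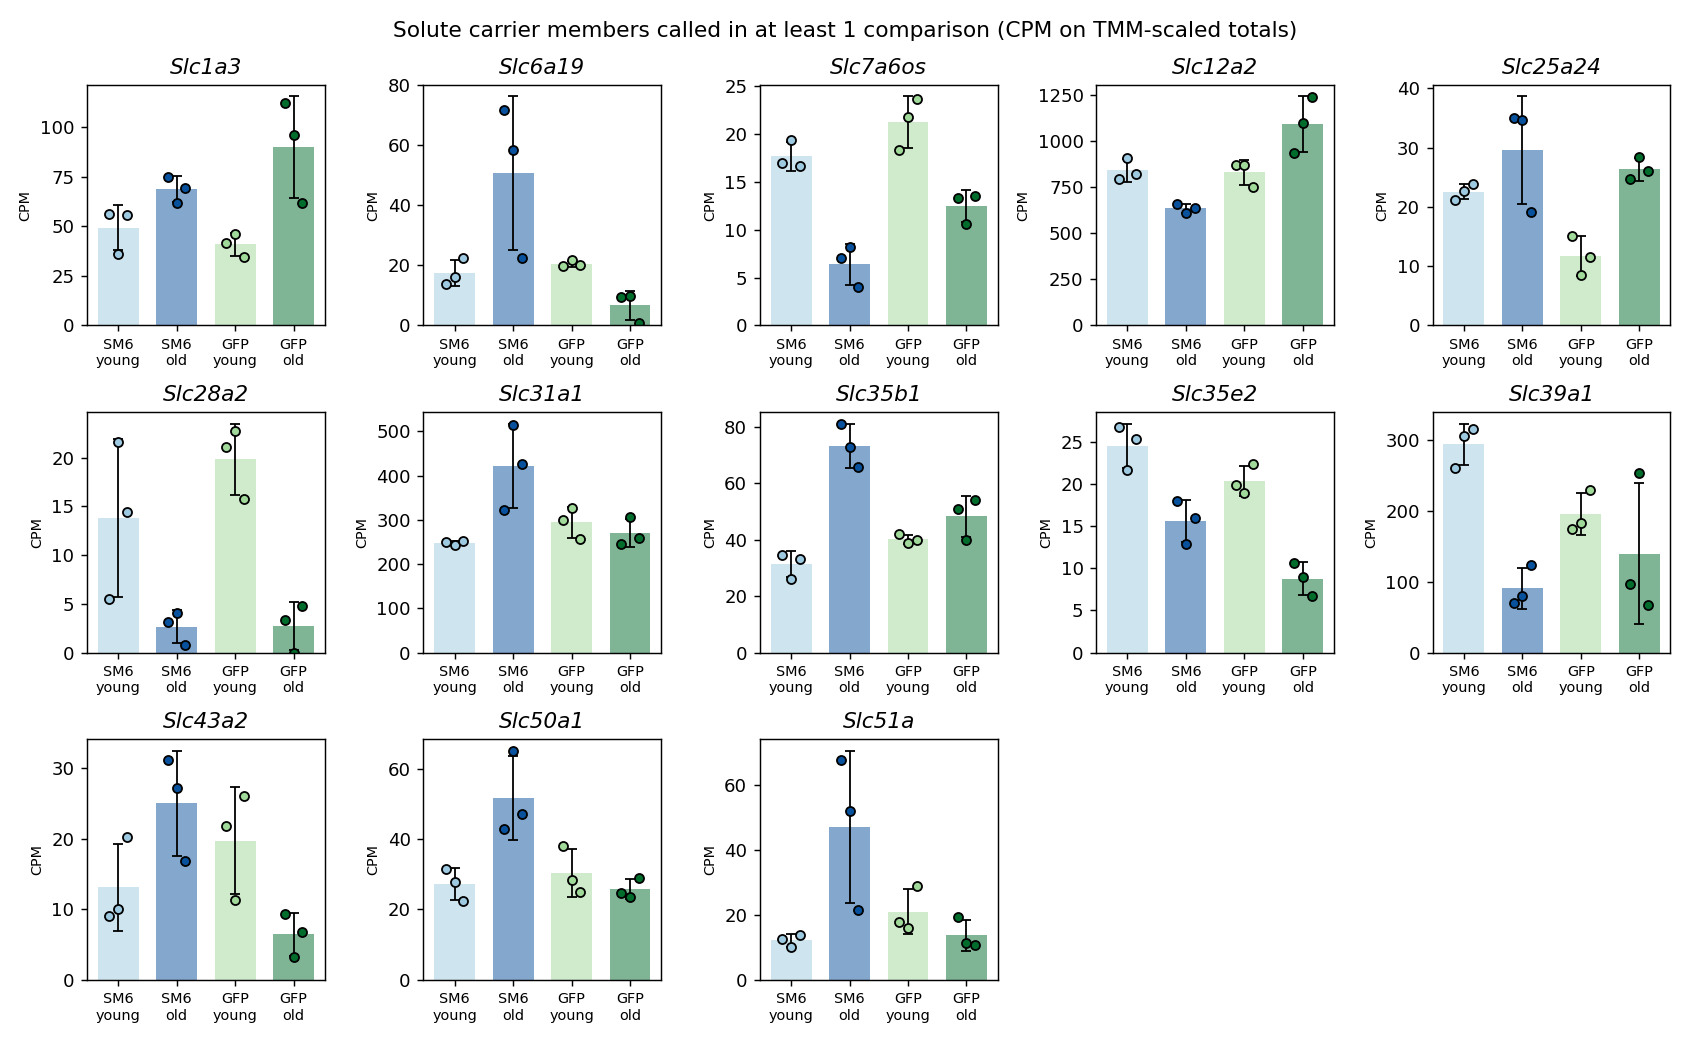
CPM of the 13 members called in at least 1 comparison, with points for the 12 libraries, bars for group means and error bars for the SD (n = 3). Slc28a2 is lower in old libraries of both isolations, while Slc6a19, Slc51a and Slc43a2 have higher means in SM6 old and lower means in Lgr5-GFP old.

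The difference between the age effects of the isolations was called for 3 members, all lower in Lgr5-GFP, 1.60% of the members against 0.658% of all genes. Over all genes, 0.606% were called lower and 0.0524% higher, and 29 members had an unadjusted p under 0.05, 15.5% against 9.43%. They were Slc6a19, Slc51a and Slc43a2, and all are absorptive transporters of enterocytes. Slc6a19 (ENSMUSG00000021565, chromosome 13, 73679745 to 73704865), the apical transporter of neutral amino acids B0AT1, measured 14, 16.1 and 22.4 CPM at 2 months and 71.7, 58.4 and 22.4 at 22 months in SM6. In Lgr5-GFP it measured 19.8, 21.7 and 20.3 CPM at 2 months and 9.33, 9.76 and 0.964 at 22 months. The old libraries of SM6 reached above the young except replicate 3, which equalled the highest young value to 3 digits, and all old Lgr5-GFP libraries lay below the young. The log2 fold change was 1.55 in SM6 (BH-adjusted p = 0.024 by edgeR, SE 0.38) and -1.53 in Lgr5-GFP (BH-adjusted p = 0.179, SE 0.46), and the difference was -3.08 (BH-adjusted p = 0.0116, SE 0.59). The difference was called in all 12 leave-one-out fits.

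Slc51a (ENSMUSG00000035699, chromosome 16, 32474504 to 32487879), the alpha subunit of the basolateral bile acid exporter, measured 12.7, 9.98 and 13.7 CPM at 2 months and 67.8, 52.3 and 21.6 at 22 months in SM6. The Lgr5-GFP values were 18, 16.1 and 29 CPM at 2 months and 19.3, 11.4 and 10.6 at 22 months. It did not overlap between ages in SM6, and did in Lgr5-GFP. It rose by 1.96 in SM6 (BH-adjusted p = 0.00312 by edgeR, SE 0.36), had a log2 fold change of -0.60 in Lgr5-GFP (BH-adjusted p = 0.654, SE 0.38) and a difference of -2.57 (BH-adjusted p = 0.0155, SE 0.52). Its exons overlap those of Pcyt1a on the opposite strand, and whether the counting used strand is not stated. Slc43a2 (ENSMUSG00000038178, chromosome 11, 75531694 to 75577575), the basolateral amino acid exporter LAT4, measured 9.10, 9.98 and 20.2 CPM at 2 months and 31.2, 27.1 and 16.8 at 22 months in SM6. The Lgr5-GFP values were 21.7, 11.3 and 26.1 CPM at 2 months and 9.33, 3.25 and 6.75 at 22 months. Its libraries overlapped in SM6 and not in Lgr5-GFP, and neither age effect was called. The difference was -2.59 (BH-adjusted p = 0.0298 by edgeR, SE 0.57), and it was lost in 8 of the 12 leave-one-out fits. Its exons overlap those of Gm45606 on the opposite strand. Slc51a lost its difference without SM6 young replicate 2, SM6 old replicate 1, Lgr5-GFP young replicate 3 or Lgr5-GFP old replicate 2 (BH-adjusted p up to 0.0615 by edgeR).

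Between the isolations at 2 months, 0 members were called by edgeR's quasi-likelihood test, against 0.0898% of all genes. An unadjusted p under 0.05 was reached by 13 members, 6.95% against 7.47% of all genes, and 1 member was called when totals were left unscaled. At 22 months, 4 members were called, 2.14% against 0.718% of all genes. The 1 higher call was 0.535% of the members against 0.0449%, the 3 lower calls 1.60% against 0.673%, and 36 members had an unadjusted p under 0.05, 19.3% against 9.40%. Slc6a19 was lower in Lgr5-GFP by a log2 fold change of -2.84 (BH-adjusted p = 0.000948 by edgeR, SE 0.44), Slc51a by -1.74 (BH-adjusted p = 0.019, SE 0.37) and Slc43a2 by -1.92 (BH-adjusted p = 0.032, SE 0.43). These 3 differences use the same old libraries as the age effects above. Slc12a2 (ENSMUSG00000024597, chromosome 18, 57878678 to 57946821), the basolateral sodium, potassium and chloride cotransporter NKCC1, was higher in Lgr5-GFP. It measured 655, 609 and 637 CPM in SM6 old and 935, 1099 and 1236 in Lgr5-GFP old, against 791, 907 and 821 in SM6 young and 867, 872 and 751 in Lgr5-GFP young. The old libraries did not overlap, and the young did. The log2 fold change at 22 months was 0.78 (BH-adjusted p = 0.013 by edgeR, SE 0.16), and with age it was -0.41 in SM6 and 0.39 in Lgr5-GFP, neither called.

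Absorptive transporters were examined as a list of 36, of which 27 were members. The list was chosen with earlier results known, and Slc10a2, Slc3a1, Slc7a7, Slc9a3, Slc23a1, Slc28a1, Slc5a8, Slc5a11 and Slc5a12 fell under the count minimum. In SM6, 24 of the 27 had a log2 fold change above 0 with age, with a median of 0.80, beside a median of -0.0070 over all genes tested, and 2 rose and 1 fell by the test, against 2.42% of all genes called. An unadjusted p under 0.05 was reached by 15 of the 27 (55.6% against 13.1% of all genes). Leaving out SM6 old replicate 3 raised the higher calls to 6, and leaving out replicate 1 or 2 of either age of SM6 lowered them to 1. In Lgr5-GFP, 8 of 27 were above 0, with a median of -0.45 beside -0.034, 1 fell, and 4 (14.8% against 9.79%) had an unadjusted p under 0.05. That median was -0.90 with the defensin share as a covariate, -0.24 with library totals alone and -0.28 over the 23 genes kept by the filterByExpr filter of edgeR. In the difference between the isolations, Slc5a9, a sodium-coupled hexose transporter, was the 1 member above 0 of 27, with a median of -1.17 beside 0.0035 over all genes. Summed over the list, CPM was 416, 419 and 472 in SM6 young and 840, 776 and 544 in SM6 old. In Lgr5-GFP the sum was 558, 505 and 577 in young and 478, 450 and 395 in old. The old libraries lay above the young in SM6 and below them in Lgr5-GFP.

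**Figure D3:**
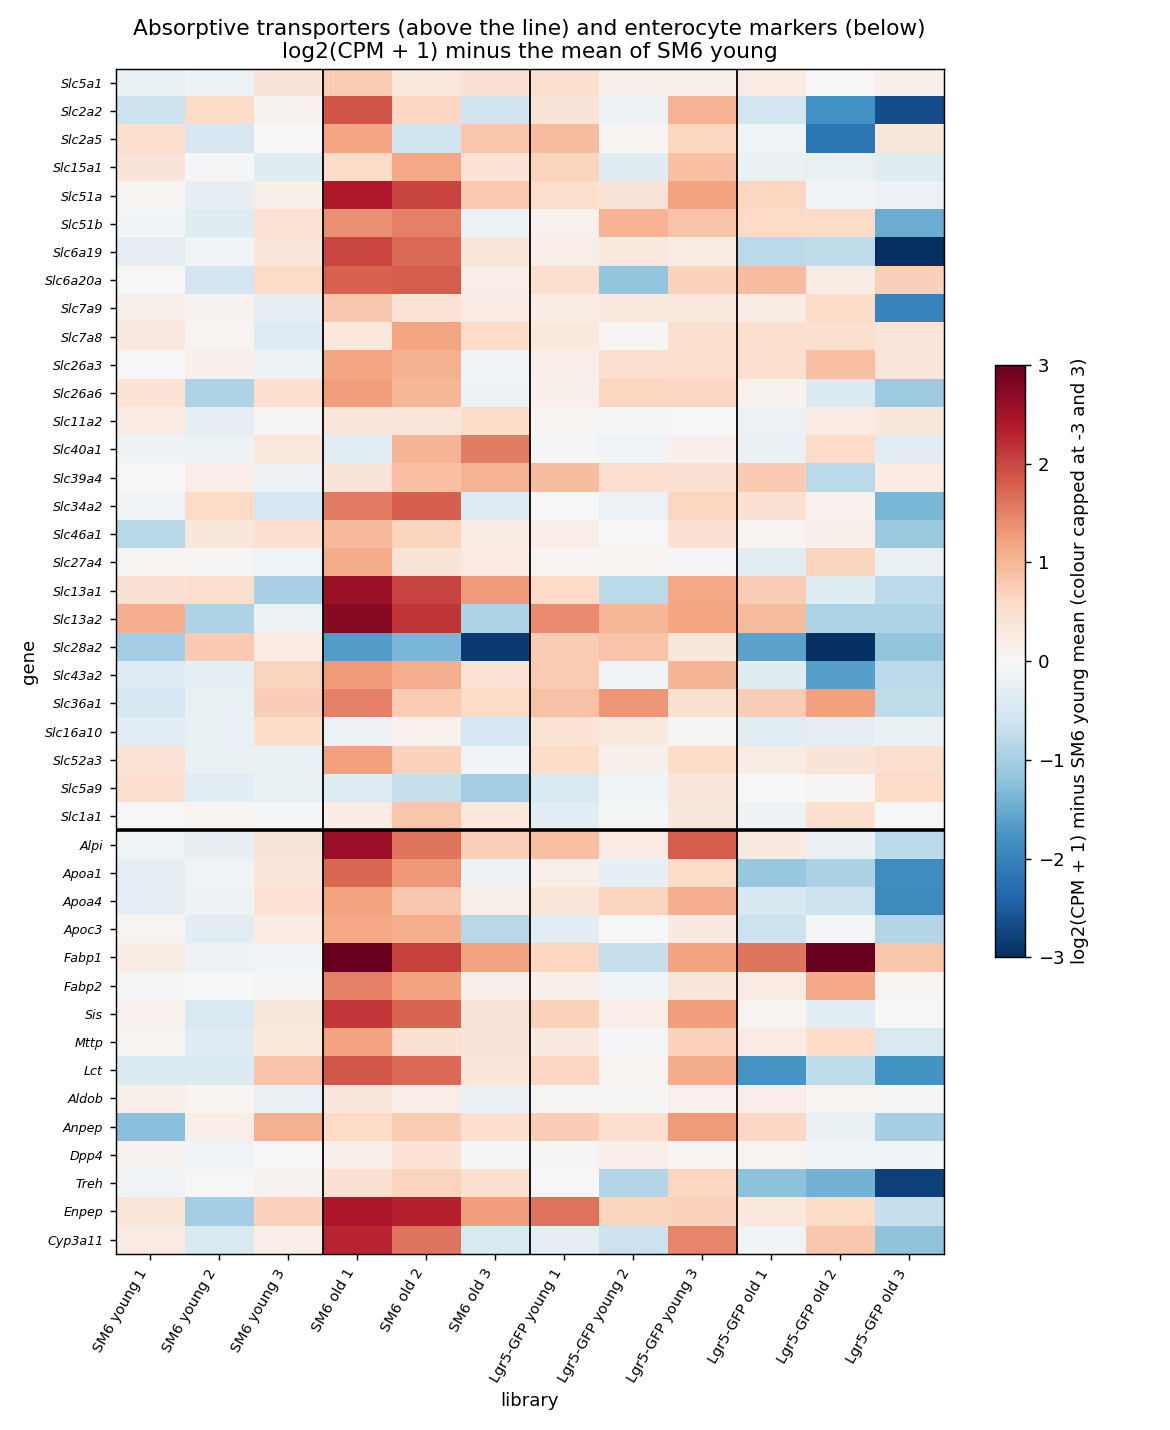
Log2(CPM + 1) of 27 absorptive transporters (above the line) and 15 enterocyte markers (below) in each library, minus the mean of the SM6 young libraries, with colour capped at -3 and 3. SM6 old replicates 1 and 2 are red in most genes of both blocks, SM6 old replicate 3 in fewer, and Slc28a2 is blue in all 6 old libraries.

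Enterocyte markers moved with these transporters. Of 15 markers, 15 were above 0 in SM6, 5 of them called higher (Sis, Enpep, Alpi, Fabp1 and Fabp2), 3 of 15 were above 0 in Lgr5-GFP, with 3 called lower (Apoa4, Lct and Apoa1), and 0 of 15 were above 0 in the difference. Of all genes, 0.643% were called higher in SM6 and 0.284% lower in Lgr5-GFP. The 5 higher calls became 0 without SM6 young replicate 2 or old replicate 1, 3 without young replicate 1 or old replicate 2, and 9 without old replicate 3. The 3 lower calls became 0 without Lgr5-GFP young replicate 3, old replicate 1 or old replicate 3, and 1 without young replicate 1. Their summed CPM ran from 1994 to 2183 in young and 2700 to 9570 in old mice of SM6. This range leaned on Fabp1, at 5563 CPM in SM6 old replicate 1, 1835 in replicate 2 and 1027 in replicate 3. In SM6 young Fabp1 ran from 400 to 517 CPM. In Lgr5-GFP it ran from 1895 to 3244 in young and 2138 to 12047 in old mice, the last set by Fabp1 in replicate 2. SM6 old replicate 3 was the lowest old SM6 library for Slc6a19, Slc51a and Slc43a2 alike. Without both libraries rich in defensins, 24 of 27 absorptive transporters were above 0 in SM6, with a median of 1.00, and 7 of 27 in Lgr5-GFP, with a median of -0.42. Without Lgr5-GFP old replicate 3, 11 of 27 were above 0 in that isolation with a median of -0.17, without old replicate 2 it was 5 of 27 with -0.48, and without young replicate 3 it was 9 of 27 with -0.29. Markers of secretory cells had the same directions, with 10 of 10 Paneth, 11 of 11 goblet and 13 of 13 enteroendocrine cell markers above 0 in SM6, against 0 of 10, 2 of 11 and 2 of 13 in Lgr5-GFP. In SM6, 2 Paneth, 7 goblet and 1 enteroendocrine cell markers were called higher, and in Lgr5-GFP 2, 1 and 0 were called lower. In the difference, 10 of 10 Paneth, 4 of 11 goblet, 2 of 13 enteroendocrine and 6 of 15 enterocyte markers were called lower. The medians were -5.15, -1.66, -1.87 and -2.15 in turn, and 0.606% of all genes were called lower. Summed Paneth CPM was 54883, 54173 and 330256 in SM6 old and 12894 to 87921 in SM6 young. In Lgr5-GFP it was 316752, 136228 and 56836 in young and 22792 to 38975 in old. The Paneth values thus leaned on SM6 old replicate 3 and Lgr5-GFP young replicate 1, and calls without these libraries are not given here. Of 10 stem cell markers, 1 was above 0 in SM6, where Olfm4 and Sox9 were called lower, and 3 were above 0 in Lgr5-GFP. The part of enterocytes or secretory cells in these values was not tested.

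Several well known carriers of absorption were not called in any comparison. Slc5a1, the glucose transporter SGLT1, measured 82.4 ± 20.0 CPM in SM6 young and 116 ± 18.6 in SM6 old, and 98.8 ± 12.4 and 88.7 ± 7.78 in Lgr5-GFP (SD, n = 3). Slc2a2, the basolateral glucose transporter GLUT2, measured 3.03, 8.31 and 5.78 CPM at 2 months and 22.6, 8.82 and 3.20 at 22 months in SM6. In Lgr5-GFP it measured 7.25, 4.73 and 12 CPM at 2 months and 3.33, 0.813 and 0 at 22 months, below the young libraries. Its difference between the isolations was -3.35 (BH-adjusted p = 0.186 by edgeR, SE 1.00). Slc2a5, the fructose transporter, and Slc15a1, the peptide transporter, stayed at or under 10.2 CPM in all libraries. Slc26a3, an apical chloride and bicarbonate exchanger, had means of 29.1 ± 3.07 CPM at 2 months and 51.7 ± 22.1 at 22 months in SM6, and of 39.1 ± 4.93 and 44.5 ± 9.45 in Lgr5-GFP. Slc40a1, the iron exporter ferroportin, had means of 6.32 ± 1.41 and 12.7 ± 7.68 in SM6.

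Mitochondrial carriers held the largest share of the members' counts, and their directions were divided. Of 32, 15 had a log2 fold change above 0 with age in SM6 and 14 in Lgr5-GFP, with medians of -0.018 and -0.030, and 0 were called in either isolation by edgeR's quasi-likelihood test, with 4 in SM6 (12.5% against 13.1% of all genes) and 3 in Lgr5-GFP (9.38% against 9.79%) at an unadjusted p under 0.05. Slc25a5 measured 1883 ± 156 CPM in young and 1982 ± 131 in old mice of SM6, and 1655 ± 119 and 1672 ± 131 in those of Lgr5-GFP (SD, n = 3). Slc25a3, the phosphate carrier, measured between 544 and 742 CPM in all 12 libraries. Slc25a4, another ADP/ATP exchanger, measured 70.4, 55.4 and 57.1 CPM in SM6 young and 32, 26.5 and 44.7 in SM6 old, which did not overlap. Its log2 fold change was -0.83 (BH-adjusted p = 0.0545 by edgeR, SE 0.23), just outside the threshold, and -0.07 in Lgr5-GFP. DESeq2 and voom with quality weights called it in SM6.

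Among 8 carriers of amino acids for growth and stress, such as Slc7a5, Slc3a2 and Slc38a2, 0 were called in any comparison by edgeR's quasi-likelihood test, and an unadjusted p under 0.05 was reached by 2 of them (25%) with age in each isolation, on average and between the isolations at 2 months, against 13.1% of all genes in SM6, 9.79% in Lgr5-GFP, 12.8% on average and 7.47% at 2 months. Slc3a2, the heavy chain shared by several exchangers, measured 93.6 ± 16.2 and 91.2 ± 19.6 CPM in SM6 and 96.9 ± 11 and 86.7 ± 15.9 in Lgr5-GFP, young and old in turn (SD, n = 3). A list named nucleotide sugar transporters held 11 members with Slc35a, Slc35b, Slc35c or Slc35d symbols. Nucleotide sugars need not be the substrate of each. Of the 11, 9 were above 0 in SM6 and 8 in Lgr5-GFP, with medians of 0.22 and 0.11. Slc35b1 alone was called in SM6, against 2.42% of all genes, and its call is not read as a change in nucleotide sugar transport. An unadjusted p under 0.05 was reached by 3 of the 11 in SM6 (27.3% against 13.1%) and by 4 in the difference between the isolations (36.4% against 9.43%). Of 22 inorganic ion carriers, 16 were above 0 in SM6, with a median of 0.38, and 13 in Lgr5-GFP, with a median of 0.049. An unadjusted p under 0.05 was reached by 7 of the 22 with age in SM6 (31.8% against 13.1% of all genes) and by 8 between the isolations at 22 months (36.4% against 9.40%), and Slc12a2 at 22 months was the 1 call among them. The counts were 2 in Lgr5-GFP (9.09% against 9.79%), 3 on average (13.6% against 12.8%), 4 in the difference (18.2% against 9.43%) and 0 at 2 months, against 7.47% of all genes. Slc4a4, a sodium bicarbonate cotransporter, measured 32.6 ± 6.73 CPM in Lgr5-GFP young and 51.1 ± 0.922 in old without being called. Of the 19 hexose, inositol and monocarboxylate carriers, 9 were above 0 in SM6 and 7 in Lgr5-GFP. Slc16a1, the monocarboxylate transporter MCT1, measured 115 ± 14.6 and 92.1 ± 12.2 CPM in SM6 and 131 ± 13.6 and 140 ± 52.4 in Lgr5-GFP. Of the 7 vesicle and lysosome carriers, 6 were above 0 in SM6 and 1 in Lgr5-GFP, and an unadjusted p under 0.05 was reached by 0 in SM6, against 13.1% of all genes, and by 2 in Lgr5-GFP (28.6% against 9.79%).

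**Figure D4:**
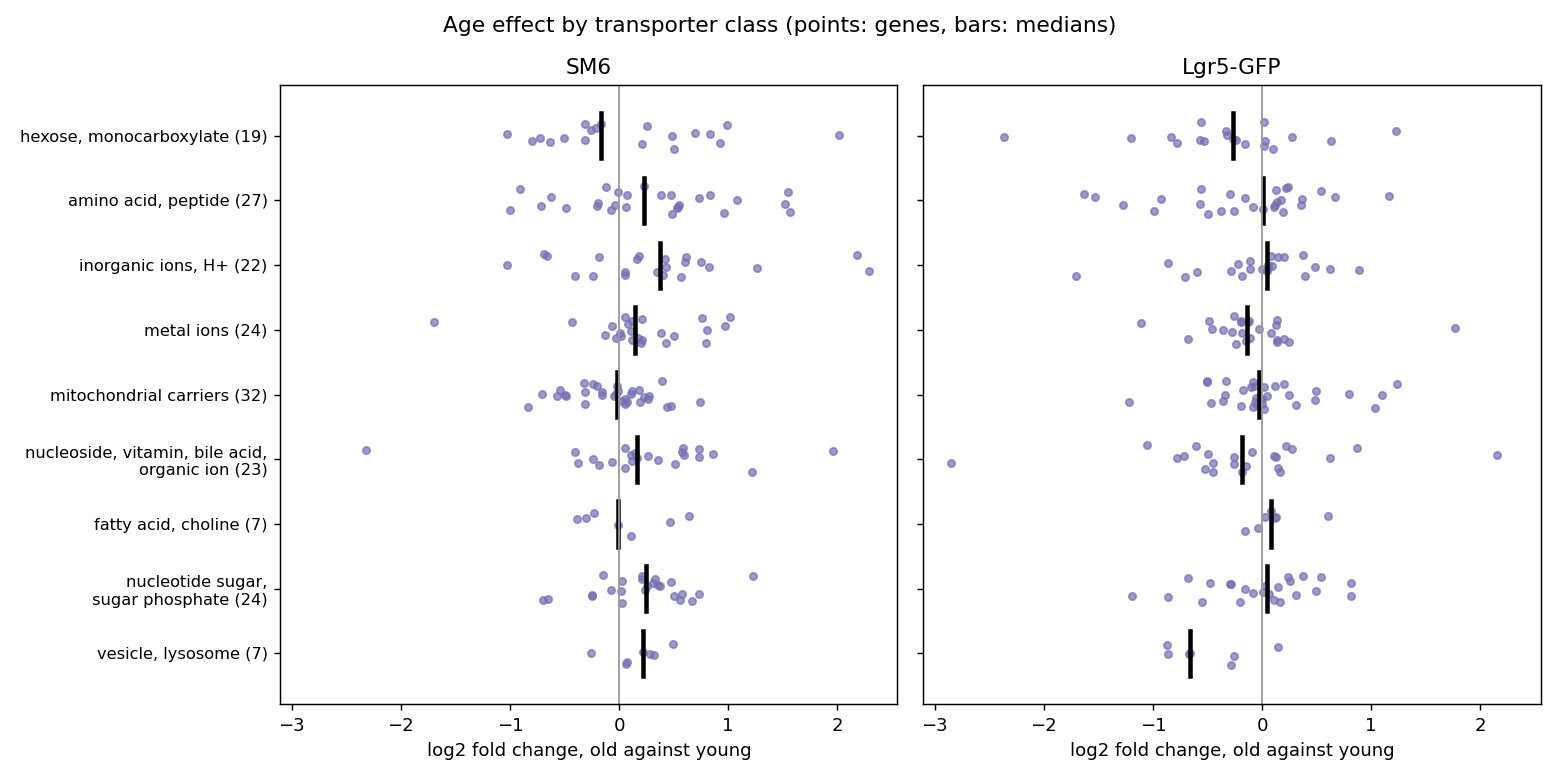
Log2 fold change with age of the members of 9 transporter classes (number of genes in brackets) in SM6 (left) and Lgr5-GFP (right), with a point for each gene and a bar at the class median. Mitochondrial carriers are centred near 0 in both, at -0.018 and -0.030, and inorganic ion carriers have the highest class median in SM6, at 0.38.

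Several of these calls were lost when 1 library was left out. The smaller group in such a fit was not told apart from the library itself. The number of members called in SM6 fell from 8 to 5, 3 or 4 without young replicate 1, 2 or 3, to 4 without old replicate 1 or old replicate 2, and came to 11 without SM6 old replicate 3, the library rich in defensins. In Lgr5-GFP it fell from 2 to 0 without young replicate 1 or old replicate 1, to 1 without young replicate 2 or 3, and came to 3 without old replicate 3. The difference between the isolations fell from 3 calls to 1 without SM6 young replicate 2, Lgr5-GFP young replicate 3 or Lgr5-GFP old replicate 2, and to 2 without SM6 young replicate 1, SM6 old replicate 1 or 2, Lgr5-GFP young replicate 1 or Lgr5-GFP old replicate 3. Calls at 22 months fell from 4 to 1 without SM6 old replicate 2 or Lgr5-GFP old replicate 3 and to 2 without Lgr5-GFP old replicate 2. Among single genes, Slc6a19 lost its call in SM6 without young replicate 1 or 2 or old replicate 1 or 2 (BH-adjusted p up to 0.181 by edgeR). Slc31a1 lost its call in SM6 without any of the young replicates or old replicate 2 (up to 0.139 by edgeR), and Slc7a6os without young replicate 2 or 3 or old replicate 1 or 3 (up to 0.115 by edgeR), while Slc50a1 lost it in 7 of the 12 leave-one-out fits (up to 0.265 by edgeR). At 22 months, Slc51a and Slc43a2 lost their calls without SM6 old replicate 1 or 2 or Lgr5-GFP old replicate 2 or 3 (up to 0.148 and 0.195 by edgeR). Slc12a2 lost its call at 22 months without SM6 old replicate 2 or Lgr5-GFP old replicate 3 (up to 0.120 by edgeR). In none of these fits did a called result change direction.

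Over all 187 members, the median log2 fold change with age was 0.12 in SM6, where 120 were above 0, and -0.081 in Lgr5-GFP, where 85 were above 0. The medians over all genes tested were -0.0070 and -0.034. In SM6, 28 members (15%) had old libraries all above the young, against 7.74% of all genes tested and 8.66% of the protein-coding genes past the same minimum, and 15 (8.02%) had them all below, against 9.78%. In Lgr5-GFP, 13 (6.95%) lay above, against 6.61%, and 20 (10.7%) below, against 7.95%. With totals left unscaled, both medians of the members changed sign, to -0.022 and 0.13, beside medians over all genes of -0.16 and 0.16. Between the isolations at 2 months, 22 members (11.8%) had Lgr5-GFP libraries all above SM6, against 6.38% of all genes, and 16 (8.56%) all below, against 7.35%. At 22 months, 13 (6.95%) lay above, against 6.13%, and 23 (12.3%) below, against 7.41%.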

How the data were processed

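The authors aligned the reads to GRCm38 with STAR 2.4.2a and counted reads over GENCODE exons with featureCounts, and the deposited table holds whole-number counts per gene with no scaling. The kit adds molecular identifiers, and whether reads were collapsed by them is not given in the sources used here. Counts were tested with edgeR 4.0.16 (R 4.3.3), with TMM scaling, genes with over 5 reads and a CPM of at least 1 in at least 1 library (13368 genes), 1 mean per group over 12 libraries, and two-sided quasi-likelihood tests adjusted by the Benjamini-Hochberg method, with a threshold of 0.05. Symbols came from GENCODE vM21 (54165 of 54232 identifiers). Alternatives used limma 3.58.1 and DESeq2 1.42.0. Tests were run on simulated data first. Members and lists were chosen with earlier results of these data known. Named were landmark transporters, called members, list examples with small p and called partners, which are not reported here. Slc7a6, Slc5a9, values of genes in comparisons that did not name them and the class of Slc7a6os were chosen after values were seen. The labels give no batch. CPM is not divided by length, so no order of levels between genes is drawn. With 1 mouse per library, replicates are animals.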

Additional observations from a re-analysis of the deposited data

Results flagged for a closer look

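The age effects of 3 members differed between the isolations by a test of the difference itself (edgeR quasi-likelihood, Benjamini-Hochberg adjusted p under 0.05). Slc6a19 differed by -3.08, Slc51a by -2.57 and Slc43a2 by -2.59 on the log2 scale, Lgr5-GFP minus SM6. Called lower in the same comparison were 6 of 15 enterocyte, 10 of 10 Paneth, 4 of 11 goblet and 2 of 13 enteroendocrine markers. Of all genes, 0.606% were called lower. The summed Paneth markers did not follow the 3 members over libraries. In SM6 old they peaked in replicate 3, at 330256 CPM, where each of these members was lowest. The part of these cell types was not tested. Groups held 3 libraries each, too few for a test of outlying values within a group.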

How the results depend on the processing

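Of 24 calls of named members, 7 were kept under every alternative (Slc1a3, Slc28a2, Slc35b1 and Slc7a6os on average, Slc35b1 and Slc51a in SM6 and Slc6a19 at 22 months), and 0 changed direction. Members called in SM6 numbered 13 with no filter beyond 1 count, 3 at an adjusted p under 0.01, 5 among members at the minimum in all 12 libraries, and 3 to 11 leaving out 1 library. In Lgr5-GFP they numbered 5 with library totals alone, 1 with DESeq2, 1 with voom and quality weights, 8 with the likelihood ratio test, 10 with no filter, 0 at 0.01, 1 in all 12 libraries, and 0 to 3 leaving out 1. On average they numbered 3 in all 12 libraries and 6 to 9 leaving out 1. In the difference they numbered 5 with DESeq2, 7 with no filter, 0 at 0.01, 1 in all 12 libraries, and 1 to 4 leaving out 1. At 2 months, 1 was called with library totals alone, no filter, the defensin share as covariate or both defensin-rich libraries left out (the latter chosen after seeing the data), and 0 to 1 leaving out 1. At 22 months, 7 were called with the likelihood ratio test, 8 with no filter, 1 at 0.01, 2 in all 12 libraries, and 1 to 5 leaving out 1. Median log2 fold changes with library totals alone were -0.022 in SM6, 0.13 in Lgr5-GFP, 0.16 in the difference, -0.064 at 2 months and 0.078 at 22 months. The SM6 median was 0.062 with 30 counts in 3 libraries (0.096 to 0.16 leaving out 1), that of Lgr5-GFP -0.023 in all 12 libraries (-0.13 to -0.044), and that of the difference -0.13 with the defensin covariate and -0.16 without both libraries (-0.26 to -0.16). Leaving out 1 gave -0.012 to 0.033 on average, 0.045 to 0.10 at 2 months and -0.13 to -0.053 at 22 months. Absorptive transporters above 0 in Lgr5-GFP numbered 4 with the defensin covariate and 5 to 11 leaving out 1, in SM6 24 to 25, and in the difference 3 with library totals alone and 1 to 2 leaving out 1. The cause of these shifts was not tested. Counts of calls under a setting are given without those over all genes, so they describe the setting rather than the members.

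Deviations of same-numbered libraries had correlations of -0.072 to 0.046 over 18 pairs, with a median of 0.016 and 0 of them over 0.1. Over 36 pairs with other numbers the median was -0.0085, and 17 of 36 best matches were with the own number. With a replicate block, 7 members were called in SM6 (Slc28a2 not among them), 2 in Lgr5-GFP, 6 on average, 3 in the difference, 0 at 2 months and 4 at 22 months. Depth limits the low members most, since 3 counts in a library correspond to 0.945 to 2.89 CPM after TMM scaling.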

Other observations

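Further members, chosen after their values were seen, showed large differences that edgeR's quasi-likelihood test did not call after Benjamini-Hochberg adjustment. Slc22a3, an organic cation transporter, measured 3.47, 2.84 and 2.48 CPM in young and 8.00, 27.6 and 4.82 in old Lgr5-GFP mice, a log2 fold change of 2.16 (adjusted p = 0.109 by edgeR). Slc13a1, a sodium sulfate cotransporter, measured 3.64, 3.88 and 0.723 CPM in young and 19.5, 12.9 and 7.19 in old SM6 mice, a log2 fold change of 2.18 (adjusted p = 0.0713 by edgeR). Slc1a2, a glutamate transporter, measured 69.2, 43.8 and 49.1 CPM in SM6 and 35.9, 23.6 and 10.8 in Lgr5-GFP at 2 months, which did not overlap, a log2 fold change of -1.18 between the isolations (adjusted p = 0.25 by edgeR). Exons of Slc22a3 overlap those of Plg, and exons of Slc1a2 those of Gm13872, on the opposite strand.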
